A study of Mus musculus with 12 samples.

Results

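The genes of 10 acute-phase plasma proteins were followed through cultured mouse hepatocytes that had received benzbromarone, oleic acid or both. They were chosen by gene symbol (Lcn2, Crp, Apcs, Saa1, Saa2, Saa3, Orm1, Orm2, Hp and Hpx), and all 10 were found among the 22471 features that each library lists. RNA sequencing had been done on 12 libraries in 4 groups of 3. In the labels these groups are Con (control, without drug or fatty acid), ConOA (oleic acid alone, here OA), BBR (benzbromarone alone) and BBROA (both, here BBR+OA). Benzbromarone (BBR) lowers uric acid by blocking its reuptake in the kidney, and OA is the fatty acid used here to load the cells with fat. The study isolated the hepatocytes from male C57BL/6J mice by collagenase perfusion and gave OA bound to albumin. It does not state whether cells without OA received albumin, so effects of OA and of albumin cannot be told apart. No gene was deleted or added in any group. The labels name the tissue as liver, and they call the replicates biological without saying whether each came from its own mouse, so p-values measure the spread between labelled replicates only.

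The acute-phase response is the change in liver secretion that follows infection or injury. Cytokines such as interleukin 6, acting through gp130 and STAT3, and interleukin 1, acting through NF-kappaB and C/EBP factors, raise transcription of the positive acute-phase genes in hepatocytes, and glucocorticoids strengthen many of these responses. In mice, serum amyloid A and serum amyloid P are the main acute-phase reactants of plasma, while C-reactive protein, which dominates in humans, responds weakly.

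In these cells the members did not move together. Lcn2, Apcs and Crp rose with OA by 2.79-fold to 4.43-fold, and again by 3.06-fold to 3.86-fold when OA was added under BBR. In the main fits, Saa1, Saa2, Orm2 and Hpx were not called in any of the 4 comparisons of groups. Fits with the replicate number as a block called Orm2 higher with OA and with BBR alone. Hp, one of the most abundant members, fell to 0.57-fold with BBR alone and stood in BBR+OA at 0.96-fold of the OA level, a difference that was not called. "Called" means throughout an adjusted p under 0.05 in edgeR's quasi-likelihood test with Benjamini-Hochberg adjustment over all genes tested.

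Of the members called higher with OA, Saa3 and Orm1 are not printed. The sequences before the start sites are shown for Lcn2, Crp and Apcs, which rose most. They are also shown for the near-identical pair Saa1 and Saa2, which were not called. Each is printed 5′ to 3′ on the gene's own strand from 250 bases before the RefSeq start site (GRCm38.p6) and stops where GENCODE annotates an untranslated exon. The GENCODE start of Lcn2 lies farther upstream than the RefSeq start, so the Lcn2 window falls inside the gene as GENCODE draws it. Capitals mark a match to the C/EBP letters TTGCNNAA (Lcn2, Saa1 and Saa2) or the STAT letters TTCNNNGAA (Apcs). The windows are chr2:32387798-32387989 (minus strand) for Lcn2, chr1:172697806-172698054 (plus) for Crp, chr1:172895055-172895304 (minus) for Apcs, chr7:46742981-46743230 (minus) for Saa1 and chr7:46751583-46751789 (plus) for Saa2.
Lcn2: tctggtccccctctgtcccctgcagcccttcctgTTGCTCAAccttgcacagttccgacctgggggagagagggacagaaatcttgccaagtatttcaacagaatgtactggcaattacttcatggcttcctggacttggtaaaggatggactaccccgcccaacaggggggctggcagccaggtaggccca
Crp: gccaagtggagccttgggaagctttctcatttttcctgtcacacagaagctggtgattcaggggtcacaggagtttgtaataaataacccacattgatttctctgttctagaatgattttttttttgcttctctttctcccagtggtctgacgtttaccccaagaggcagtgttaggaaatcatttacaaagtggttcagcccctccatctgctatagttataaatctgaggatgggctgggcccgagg
Apcs: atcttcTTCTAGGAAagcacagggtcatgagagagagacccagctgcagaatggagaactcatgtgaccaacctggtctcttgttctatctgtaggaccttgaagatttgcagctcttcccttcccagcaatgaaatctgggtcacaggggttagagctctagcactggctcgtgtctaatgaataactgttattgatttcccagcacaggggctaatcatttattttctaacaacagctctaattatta
Saa1: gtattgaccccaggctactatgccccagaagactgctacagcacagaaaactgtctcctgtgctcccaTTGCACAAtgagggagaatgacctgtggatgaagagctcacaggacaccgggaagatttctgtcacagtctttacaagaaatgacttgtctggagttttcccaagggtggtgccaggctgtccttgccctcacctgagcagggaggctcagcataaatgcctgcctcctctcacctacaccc
Saa2: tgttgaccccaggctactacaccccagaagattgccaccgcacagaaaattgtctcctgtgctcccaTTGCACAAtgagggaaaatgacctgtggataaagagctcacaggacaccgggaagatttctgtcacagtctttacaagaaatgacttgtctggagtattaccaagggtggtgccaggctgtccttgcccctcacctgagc

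Of the 10 members, 8 had an upstream sequence in the RefSeq table, and Hp and Orm1 are named only. The C/EBP letters occurred once each in the 250 bases before Lcn2, Saa1, Saa2, Saa3, Orm2 and Hpx, on either strand. Among all 32851 promoters of the table, 9.56% held these letters. The STAT letters were found in Apcs alone among the 8 (7.02% of all promoters), from 244 to 236 bases before the start. The kappaB consensus (3.90% of promoters), the PPAR DR1 consensus (0.338%) and the glucocorticoid element (0.387%) had no match in these 8 windows, and Crp had no match of any of the 5 motifs. Crp, without a match, and Lcn2 and Saa3, with the C/EBP letters, were called higher with OA. Saa1, Saa2, Orm2 and Hpx, with the same C/EBP letters, were not called in the main fit. These matches describe letters and not binding.

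The genes lie in clusters (GENCODE M21, GRCm38, all annotated as protein-coding). Crp (chr1:172698055-172833031, plus strand) and Apcs (chr1:172893961-172895041, minus strand) encode the short pentraxins, which bind bacterial and damaged cell surfaces, and lie 60929 bases apart. Saa3 (chr7:46711998-46715700, minus), Saa1 (chr7:46740497-46742980, minus) and Saa2 (chr7:46751790-46754313, plus) follow each other with 24796 and 8809 bases between them. Orm1 (chr4:63344560-63348163, plus) and Orm2 (chr4:63362449-63365878, plus) are 14285 bases apart. Lcn2 (chr2:32384633-32388252, minus), Hp (chr8:109575128-109579172, minus) and Hpx (chr7:105591613-105600137, minus) stand alone. Saa1 and Saa2 transcripts were identical at 93.9% of aligned positions and Orm1 and Orm2 at 91.0%, and their deposited counts were fractional in 10 and 12 of the 12 libraries, respectively. No fractional count occurred for Lcn2, Crp, Apcs, Saa3, Hp or Hpx. The split of reads between Saa1 and Saa2, and among Orm1, Orm2 and Orm3, is therefore uncertain, whereas Saa1 and Saa3 shared 61.6% and Crp and Apcs 33.9%.

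Libraries held between 15485508 and 23668379 counts, which places the floor of 3 counts at 0.127 to 0.194 CPM (counts scaled to library size), for counting error only. The 10 members together took 0.779% to 1.19% of all counts. All 10 listed hepatocyte markers exceeded 5 CPM in every group, and their summed level was 34258 to 35546 CPM in control, 39958 to 41148 in OA, 35483 to 37261 in BBR and 41413 to 43379 in BBR+OA. Most of this sum was Alb, which averaged 28106, 32104, 29614 and 33172 CPM in these groups. Neutrophil markers were at or near 0, with Camp, Mpo, Ngp and Retnlg at 0 in every library and a sum of at most 0.264 CPM. Macrophage markers summed to 102 to 121 CPM in control, 111 to 125 in OA, 142 to 184 in BBR and 117 to 125 in BBR+OA. Cd68 alone made up most of this sum in control, BBR and BBR+OA, with averages of 80.1, 131 and 71.8 CPM. Cholangiocyte markers summed to 591 to 723 CPM in control, 243 to 273 in OA, 393 to 422 in BBR and 200 to 242 in BBR+OA. Most of that was Spp1, which averaged 613, 204, 343 and 166 CPM in these groups. Endothelial markers summed to 61.1 to 77.8 CPM and stellate and fibroblast markers to 23.2 to 30.3 CPM over all libraries. In such bulk samples, fewer cells of a type and less RNA per cell cannot be told apart.

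Levels of different genes can be compared only per transcript length, for which the deposited FPKM values were used. Hpx, whose product binds free heme, led in control at 4220.2 ± 385 FPKM (SD, n = 3). Hp, whose product haptoglobin binds free hemoglobin, followed at 1386 ± 81.4 FPKM and Orm1, encoding the plasma carrier orosomucoid (alpha-1-acid glycoprotein), at 782 ± 45.1 FPKM. Next came Saa1 at 388 ± 18.3 and Saa2 at 366 ± 19.8 FPKM, which overlapped. Lcn2 stood at 284 ± 20.3 and Orm2 at 193 ± 23.0 FPKM, and the lowest levels were those of Apcs (28.6 ± 2.90), Crp (26.2 ± 1.88) and Saa3 (8.95 ± 0.685 FPKM). Apcs and Crp overlapped, and all other neighbours in this order were apart in their ranges.

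With OA, Lcn2 moved up in this order to the place after Hp, at 1227 ± 123 FPKM, above Orm1 (864 ± 44.0 FPKM) with no overlap. In BBR, Hp dropped to 773 ± 57.1 FPKM and overlapped Orm1 (842 ± 51.8 FPKM). Lcn2 again followed Hp in BBR+OA (1043 ± 172 FPKM), there overlapping Orm1 (836 ± 118 FPKM). The last places were taken by Apcs, Crp and Saa3 in all 4 groups.

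**Figure D1:**
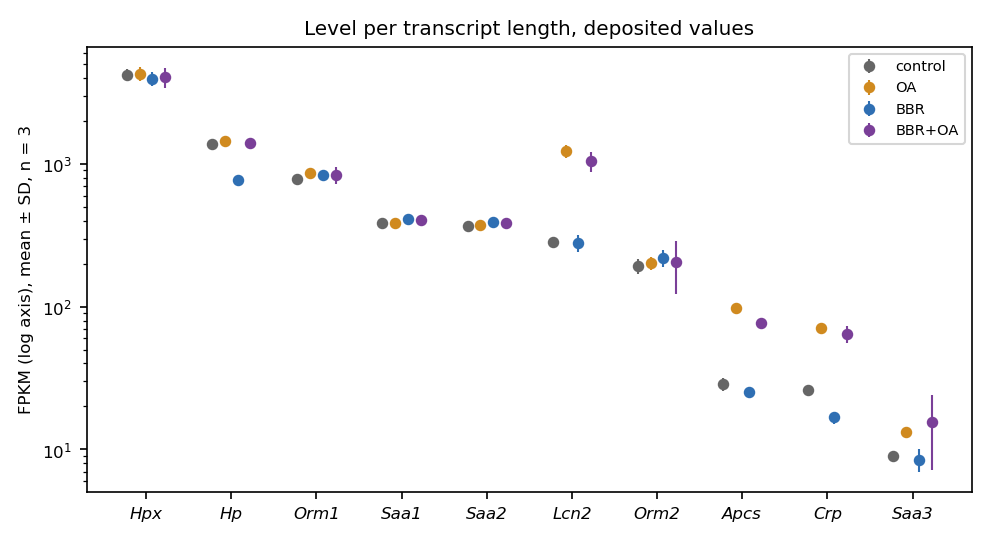
Deposited FPKM (log axis) of the 10 acute-phase genes in control, OA, BBR and BBR+OA, as means with SD over 3 libraries, ordered by the control level. Hpx stays highest and Saa3 lowest in each group, while Lcn2 lies lower in control (284 FPKM) and BBR (279 FPKM) than in the groups with OA (1227 and 1043 FPKM).

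The first comparison, OA against control, asks what OA, given with albumin, did without BBR. Lcn2 encodes lipocalin 2, a secreted protein that captures iron-loaded bacterial siderophores. Its level (CPM scaled by TMM on all 12 libraries, used from here on) was 236, 275 and 259 in the control libraries and 999, 1171 and 1227 in the OA libraries. Every OA library was thus far above every control library, and the log2 fold change was 2.15 ± 0.077 (SE, adjusted p = 9.23e-11). Apcs, encoding serum amyloid P, went from 24.6, 27.1 and 30.7 CPM to 89.8, 94.5 and 105 CPM. Again the groups were wide apart, with a log2 fold change of 1.81 ± 0.078 (adjusted p = 6.50e-10). Crp, encoding C-reactive protein, stood at 43.0, 47.3 and 41.4 CPM in control and at 116, 121 and 129 CPM with OA. Its log2 fold change was 1.48 ± 0.061 (adjusted p = 4.66e-10), also without overlap. Each of these 3 calls held in 12 of 12 alternatives.

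Saa3, the serum amyloid A form that macrophages and fat cells also make, was low, at 4.97, 4.53 and 5.26 CPM in control and 7.86, 7.52 and 6.69 CPM with OA. It rose by a log2 fold change of 0.58 ± 0.13 (adjusted p = 0.00187), a call that was lost when all 12 libraries shared 1 fit (adjusted p = 0.0780). Orm1 was called with a small difference of 0.18 ± 0.060 (adjusted p = 0.0249), from 559, 599 and 639 CPM to 639, 671 and 716 CPM, so that the ranges met without overlapping. That call held in 6 of 12 alternatives. Without control replicate 1, control replicate 2, OA replicate 2 or OA replicate 3 it was lost (0.13, 0.18, 0.19 and 0.14, with adjusted p of 0.116, 0.0712, 0.0588 and 0.0706), as under upper quartile scaling (0.13, adjusted p = 0.0958) and in 1 fit of all 12 libraries (0.17, adjusted p = 0.0863).

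Saa1 and Saa2, the serum amyloid A forms that circulate with high-density lipoprotein, were not called. Saa1 stood at 231, 223 and 247 CPM in control and at 214, 239.9 and 256 CPM with OA, with a log2 difference of 0.025 and a 95% interval of -0.11 to 0.16. For Saa2, 237, 216 and 235 CPM in control faced 232, 234 and 251 CPM with OA, and the interval of the log2 difference was -0.046 to 0.18. The groups of both genes overlapped. Hp, with 1831, 1947 and 1745 CPM in control and 1978, 1823 and 2103 CPM with OA, differed by 0.10 ± 0.062 (adjusted p = 0.197). Orm2 differed by 0.10 (interval -0.083 to 0.29) and Hpx by 0.053 (interval -0.13 to 0.23), and neither was called. In edgeR with the replicate number as a block, Hp (0.10, adjusted p = 0.00671) and Orm2 (0.11, adjusted p = 0.0125) were called higher. With the reads of Saa1 and Saa2 summed before the fit, the difference was 0.047 ± 0.058 (adjusted p = 0.545). Orm1, Orm2 and Orm3 summed gave 0.17 ± 0.064 (adjusted p = 0.0476).

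In all, 5 of the 10 members were called higher and 0 lower, where 42.8% of the 12418 genes tested were called in either direction, 21.3% higher and 21.5% lower. DESeq2 also called 5 higher and 0 lower, and 0 members were lower at an unadjusted p under 0.05. The members' median log2 fold change was 0.14, beside -0.0060 over all genes tested. The groups did not overlap for 5 members, beside 52.2% of all genes. Macrophage markers moved in both directions in the same libraries. Of 11 tested, 3 were higher (Marco by 2.51, Lyz2 by 1.67 and Adgre1 by 1.41 on the log2 scale, reaching 6.89, 11.2 and 6.36 CPM) and 6 were lower, among them Cd5l (log2 fold change -1.05) and C1qa (-0.67). Of the 10 hepatocyte markers, 6 were higher. The part of these markers in the members' levels was not tested.

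**Figure D2:**
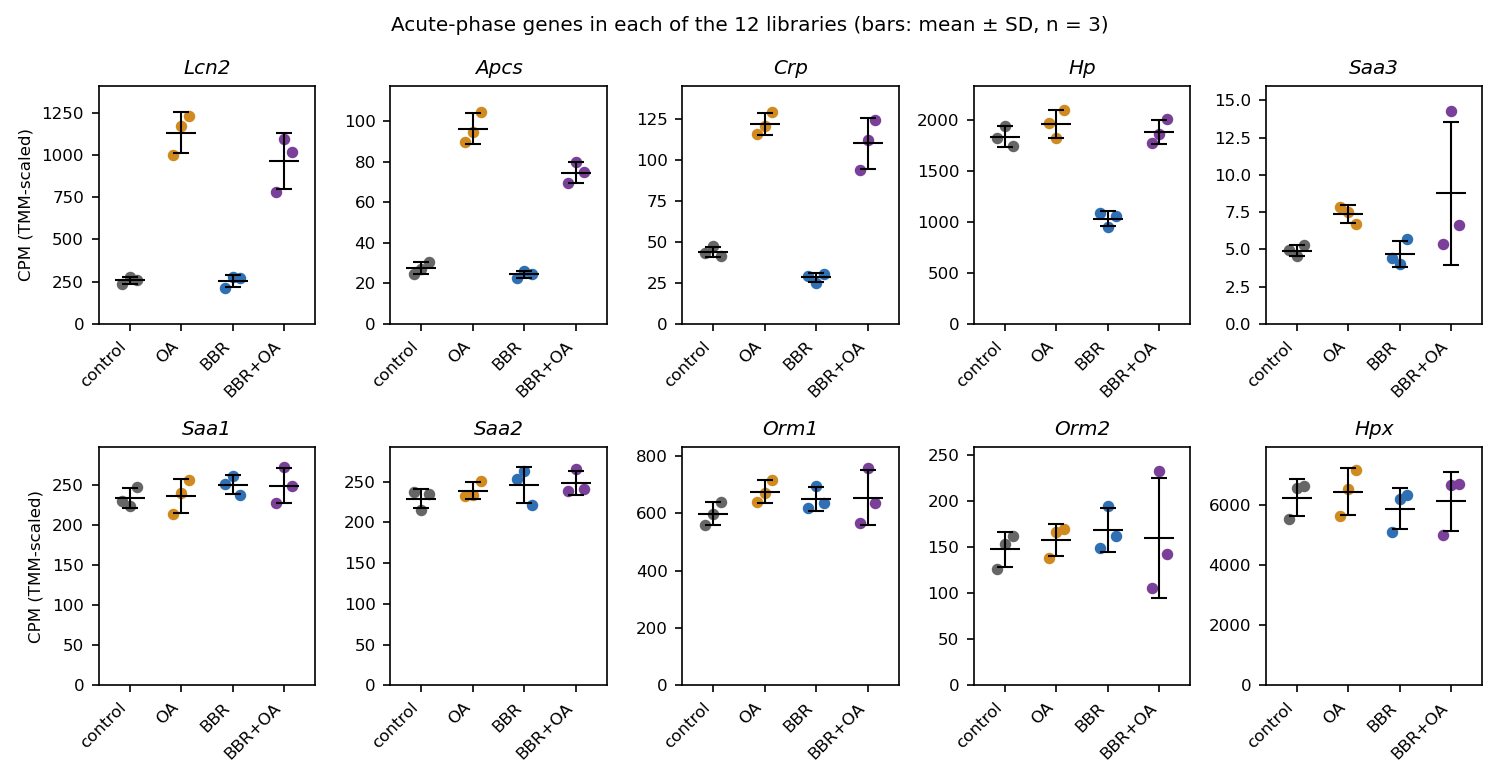
TMM-scaled CPM of each acute-phase gene in each of the 12 libraries (points), with the mean and SD of the 3 libraries of a group (bars); every axis starts at 0. Lcn2, Apcs and Crp lie higher in both groups with OA, Hp lies lower in BBR alone (950.3 to 1090.2 CPM), and BBR+OA replicate 2 stands apart for Saa3 (14.3 CPM) and Orm2 (232 CPM).

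OA was also given to cells that received BBR, and BBR+OA against BBR repeats the question in libraries that the first comparison did not use. Crp rose from 29.5, 25.2 and 30.3 CPM to 93.8, 112 and 124 CPM. No BBR+OA library came near the BBR range, and the log2 fold change was 1.95 ± 0.093 (adjusted p = 2.12e-09). Lcn2 went from 213, 279 and 271 CPM to 778, 1095 and 1015 CPM, a log2 fold change of 1.92 ± 0.11 (adjusted p = 1.41e-08). The lowest Lcn2 value of each set came from replicate 1. For Apcs, 22.6, 26.1 and 24.6 CPM in BBR faced 69.3, 80.0 and 74.7 CPM in BBR+OA, which gave 1.61 ± 0.068 (adjusted p = 7.09e-10).

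Hp, not called with OA alone, rose here from 1090.2, 950.3 and 1065 CPM to 1781, 1869 and 2017 CPM. The groups were far apart, with a log2 fold change of 0.87 ± 0.059 (adjusted p = 6.04e-08). The calls of Lcn2, Crp, Apcs and Hp each held in 12 of 12 alternatives. Saa3 was called at 0.89 ± 0.29 (adjusted p = 0.0258) although its groups overlapped, at 4.42, 3.99 and 5.70 CPM in BBR and 5.36, 14.3 and 6.67 CPM in BBR+OA. That difference rests on BBR+OA replicate 2. Without this library it was 0.34 and no longer called (adjusted p = 0.173), and the call was also lost in DESeq2 (0.90, adjusted p = 0.134) and without BBR replicate 1 or 2 (0.84 and 0.80).

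The same library was high in Orm2, at 232 CPM beside 105 and 143 CPM in the other BBR+OA libraries and 149, 195 and 162 CPM in BBR. With all libraries the Orm2 difference was -0.072 ± 0.19 and not called (adjusted p = 0.802), and without replicate 2 of BBR+OA it became -0.44, called lower (adjusted p = 0.0116). Saa1 (log2 difference -0.0060, interval -0.13 to 0.12), Saa2 (0.013, -0.12 to 0.14), Orm1 (0.0085, -0.16 to 0.18) and Hpx (0.059, -0.16 to 0.27) were not called. Counted together, 5 of 10 members were higher and 0 lower, beside 38.9% of 12416 genes called in either direction, 20.1% higher and 18.8% lower. DESeq2 called 4 higher and 0 lower, and 0 were lower at an unadjusted p under 0.05. The groups were apart for 4 members, against 49.6% of all genes, and the members' median log2 fold change was 0.46 (-0.0061 for all genes). Of 11 macrophage markers, 3 were higher and 3 lower, with Marco at 2.27, Lyz2 at 1.79 and Adgre1 at 1.75 on the log2 scale and Cd68 at -0.87. The part of these markers in the members' levels was not tested.

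**Figure D3:**
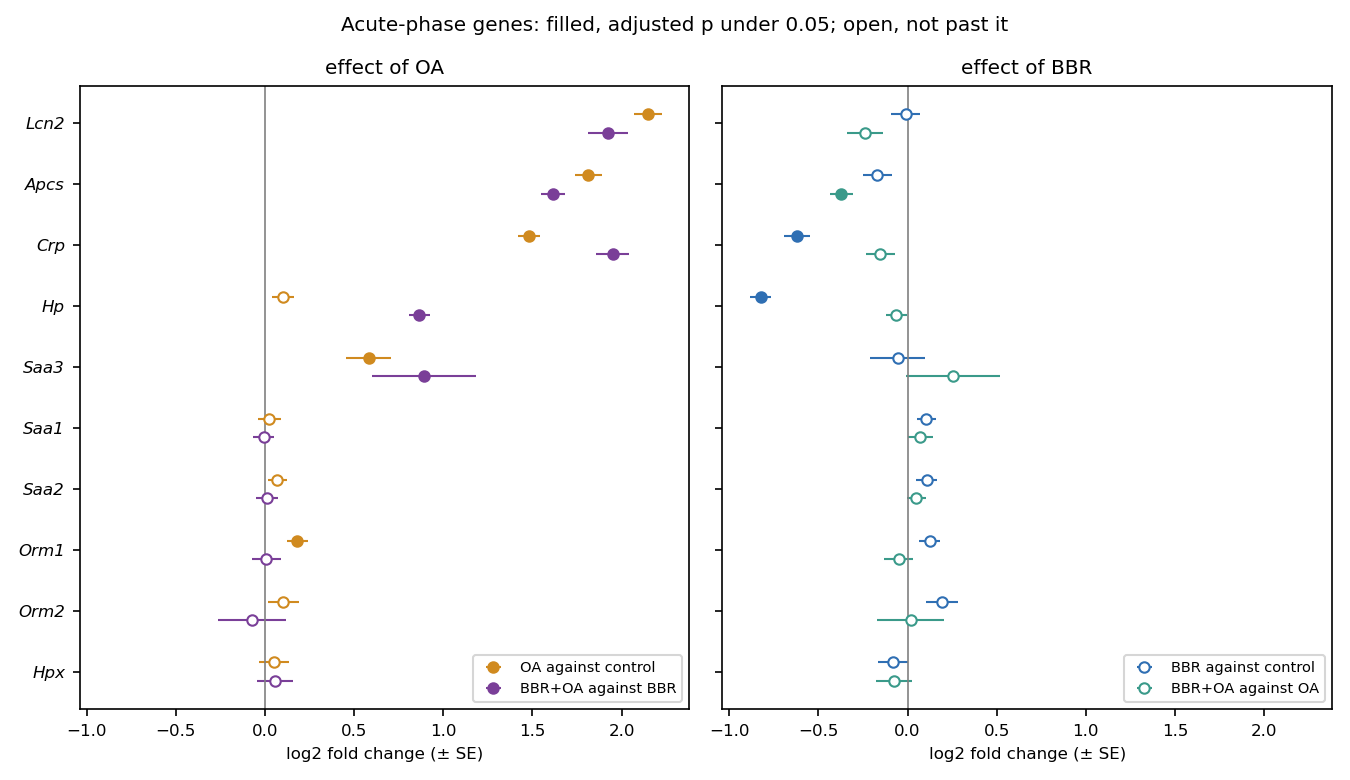
Log2 fold changes with SE of the 10 acute-phase genes for OA (left, in cells without and with BBR) and for BBR (right, in cells without and with OA); filled points had an adjusted p under 0.05 in edgeR's quasi-likelihood test. On the left Lcn2, Apcs and Crp lie between 1.48 and 2.15, and on the right Hp (-0.82) and Crp (-0.62) stand out in BBR against control.

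BBR against control shows the drug without added fatty acid. Hp was the member with the largest difference. From 1831, 1947 and 1745 CPM in control it fell to 1090.2, 950.3 and 1065 CPM in BBR, with every BBR library below every control library. Its log2 fold change was -0.82 ± 0.060 (adjusted p = 9.11e-08). Crp also fell, from 43.0, 47.3 and 41.4 CPM to 29.5, 25.2 and 30.3 CPM, again without overlap (-0.62 ± 0.073, adjusted p = 1.04e-05). Both calls held in 12 of 12 alternatives.

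The other 8 members were not called. Lcn2 stood at 236 to 275 CPM in control and 213 to 279 CPM in BBR, a log2 difference of -0.011 with an interval of -0.18 to 0.16. Apcs differed by -0.17 ± 0.083 (adjusted p = 0.146), with 24.6 to 30.7 CPM in control and 22.6 to 26.1 CPM in BBR. The serum amyloid A genes differed by 0.11 (Saa1, interval -0.0037 to 0.21), 0.11 (Saa2, -0.022 to 0.24) and -0.055 (Saa3, -0.38 to 0.27). Orm1 differed by 0.12 (adjusted p = 0.126), Orm2 by 0.20 (adjusted p = 0.118) and Hpx by -0.081 (adjusted p = 0.511). Orm2 was called higher without the filter on low counts (0.20, adjusted p = 0.0262) and without BBR replicate 1 (0.28, adjusted p = 0.0246), Orm1 without control replicate 3 (0.17, adjusted p = 0.0457), and Saa2 without BBR replicate 3 (0.18, adjusted p = 0.0342). The edgeR fit with the replicate number as a block called Orm1 (0.12, adjusted p = 0.0381) and Orm2 (0.20, adjusted p = 0.00364) higher. In the main fit 2 of 10 members were called lower and 0 higher, where 27.7% of 12555 genes were called, 14.5% lower and 13.2% higher. DESeq2 called the same numbers, and 2 members were higher at an unadjusted p under 0.05. The same 2 members were the ones without overlap, beside 41.5% of all genes, and the members' median log2 fold change was -0.033 (-0.00085 for all genes). Of the 11 macrophage markers tested, Cd68 was higher (0.71) and Cd5l lower (-0.68, a call lost without control replicate 3 at -0.53), and of the 10 hepatocyte markers 2 were higher and 5 lower. Their part was not tested.

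In cells given OA, BBR+OA against OA, 1 member was called. Apcs stood at 89.8, 94.5 and 105 CPM with OA and at 69.3, 80.0 and 74.7 CPM with both agents. All BBR+OA libraries were lower, and the log2 fold change was -0.37 ± 0.065 (adjusted p = 0.00478), a call that held in 12 of 12 alternatives. Lcn2, at 999, 1171 and 1227 CPM against 778, 1095 and 1015 CPM, overlapped and missed the threshold (-0.24 ± 0.10, adjusted p = 0.210). So did Crp (-0.15 ± 0.079, adjusted p = 0.321), whose BBR+OA libraries at 93.8, 112 and 124 CPM spanned most of the OA range. In edgeR, Lcn2 was called lower without the filter on low counts (-0.24, adjusted p = 0.0397). With the replicate number as a block, Lcn2 (-0.25, adjusted p = 0.00124) and Crp (-0.16, adjusted p = 0.0433) were called lower.

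Hp differed by -0.062 with an interval of -0.19 to 0.066, which lies wholly above the log2 fold change of -0.82 measured without OA. Saa1 (0.072, interval -0.077 to 0.22), Saa2 (0.050, -0.064 to 0.16), Saa3 (0.25, -0.31 to 0.82), Orm1 (-0.050, -0.22 to 0.12), Orm2 (0.017, -0.39 to 0.42) and Hpx (-0.077, -0.29 to 0.14) were not called. The count of 1 of 10 called lower and 0 higher stands beside 4.59% of 12278 genes called in either direction, 2.63% lower and 1.95% higher. DESeq2 called the same numbers, and 0 members were higher and 2 lower at an unadjusted p under 0.05. The groups were apart for 1 member, beside 23.9% of all genes, and the members' median was -0.056 (-0.00031 for all genes). None of the 11 macrophage markers was called in this comparison by edgeR or by DESeq2, and 0 of them had an unadjusted p under 0.05.

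Whether BBR acted differently with and without OA was tested as an interaction over all 12 libraries, the BBR effect with OA minus that without it. Hp gave 0.77 ± 0.090 on the log2 scale (adjusted p = 3.32e-05), and this call held in 17 of 17 alternatives. Crp gave 0.48 ± 0.12 (adjusted p = 0.0162). It held in 13 of 17 alternatives and was lost without control replicate 2 (0.42), OA replicate 2 (0.45), BBR replicate 2 (0.41) or BBR+OA replicate 3 (0.36), with adjusted p of 0.0509, 0.0524, 0.0585 and 0.0584.

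Both interactions are positive: Hp and Crp were lower with BBR in cells without OA and were not called in cells with it. The other 8 members were not called, with log2 interactions from -0.22 (Lcn2, interval -0.54 to 0.11) to 0.32 (Saa3, -0.45 to 1.09). Apcs, called lower only when OA was present, gave -0.19 with an interval of -0.43 to 0.045, so a difference between its BBR effects was not shown. For Orm2 the value was -0.17 (interval -0.71 to 0.37), and without BBR+OA replicate 2 it was -0.56 and called (adjusted p = 0.0493). Lcn2 was called lower in edgeR with the replicate number as a block (-0.22, adjusted p = 0.0207). The 2 members called higher of 10, and 0 lower, stand beside 12.2% of 12742 genes called, 6.87% higher and 5.31% lower. DESeq2 called the same numbers, and 0 members were lower at an unadjusted p under 0.05.

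**Figure D4:**
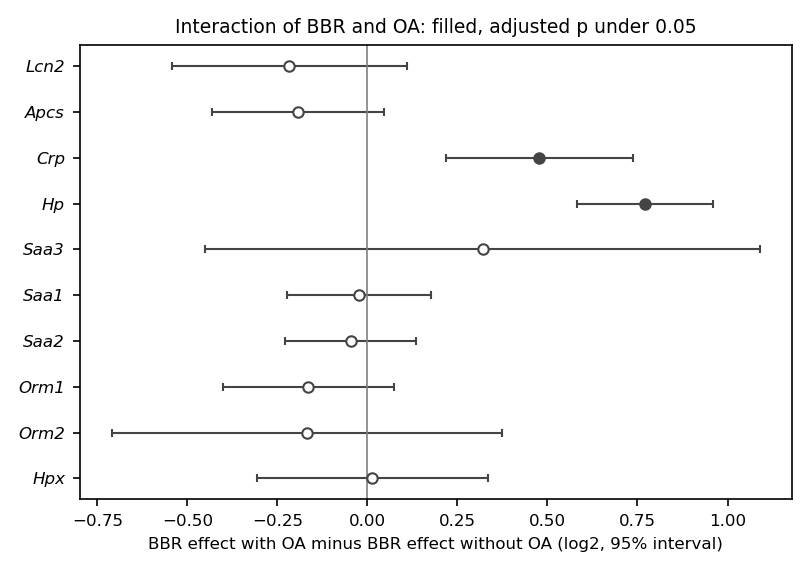
Interaction of BBR and OA for the 10 acute-phase genes, as the log2 BBR effect with OA minus that without OA, with 95% intervals from the edgeR fit on 12 libraries; filled points had an adjusted p under 0.05. Hp (0.77) and Crp (0.48) lie above 0 with intervals that exclude it, and the widest intervals belong to Saa3 and Orm2.

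Of the genes tested in the 12-library fit, those with the pattern most like each member were taken by the root mean square difference of log2 CPM over the 12 libraries, after centring each gene. For Lcn2 these were Defb1 (0.177) and Apcs (0.207), and for Apcs they were H2-M9 (0.165) and Epha1 (0.181). Crp lay closest to Epha1 (0.179) and Vil1 (0.190), and the distance between Lcn2 and Crp was 0.308. Hp was closest to Pid1 (0.0783) and Tmem176a (0.0842). Saa1 had Rab33b (0.0588) and Dad1 (0.0594), and Saa2 had Chmp1a (0.0574) and Saa1 (0.0596). Orm1 was nearest to Bbip1 (0.0592), Orm2 to AI429214 (0.173) and Hpx to Kctd13 (0.0926) and Rps15a (0.0950). The remaining nearest features, of Saa3, Orm1 and Orm2, were assembled loci without a gene name. Defb1 and H2-M9 averaged about 1 CPM or less (1.04 and 0.586 CPM), where counting error is large.

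The genes around the members were taken from lists of the pathway. Counts for these lists stand beside the shares of all genes tested. With OA, 21.3% were called higher and 21.5% lower, and in BBR+OA against BBR 20.1% and 18.8%. With BBR alone the shares were 13.2% higher and 14.5% lower, and in BBR+OA against OA 1.95% and 2.63%. In the interaction they were 6.87% and 5.31%. Some of their calls were lost, without a change of direction, when a single library was left out: Asgr1, Cebpd, Chuk, Rbp4, Scarb1, Tat and Trf with BBR alone, Il1r1, Nfkbiz and Socs3 with OA, Il1rn and Irak4 in BBR+OA against BBR, and Asgr1, Il6st, Klf15, Lrg1, Per1 and Socs3 in BBR+OA against OA. Some of these calls were lost in most of the fits that left out 1 library. Among them were Asgr1, Cebpd and Scarb1 with BBR alone and Nfkbiz with OA. So were Irak4 in BBR+OA against BBR, and Asgr1, Per1 and Socs3 in BBR+OA against OA. Among the inducing cytokines, Il6 reached at most 5 counts in any library (0.255 CPM in OA replicate 3). Of the 5 inducing cytokines tested, 2 were higher and 2 lower with OA, and again 2 and 2 in BBR+OA against BBR. The 2 higher were Il1a and Il1b, which passed the filter on low counts only through the groups with OA. Their place among the genes tested thus depended on the rise itself, and in BBR against control only 3 of the 10 listed cytokines were tested. Il1a, Il1b and Ctf1, and Clcf1 with OA, were singled out after their values had been seen. The 2 lower with OA were Ctf1 (2.48 to 1.21 CPM) and Clcf1 (21.4 to 17.2 CPM). Il1b stood at 0.151, 0.191 and 0.126 CPM in control, which is at or near the floor, and at 1.87, 2.27 and 2.30 CPM with OA (log2 fold change 3.75 ± 0.35), and Il1a rose from a mean of 0.460 to 1.73 CPM (1.89 ± 0.29). In BBR+OA against BBR they were higher by 2.82 ± 0.46 and 1.69 ± 0.41. Lif, a ligand of the gp130 family, was lower with BBR in cells without OA (19.9 to 14.6 CPM, -0.44 ± 0.10) and with OA (22.3 to 12.6 CPM, -0.81 ± 0.10), and Clcf1, of the same family, was lower in BBR+OA than in BBR (-0.40 ± 0.075).

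Of 16 receptors and signal transducers, 5 were higher and 3 lower with OA, and 5 were higher and 2 lower in BBR+OA against BBR, shares near those of all genes (42.8% and 38.9% called). Il22ra1, which with a partner chain binds interleukin 22, had 6.44 CPM without and 7.36 CPM with BBR in cells not given OA, and rose with OA in both settings (1.13 ± 0.11 and 0.93 ± 0.10). Il6ra, the interleukin 6 receptor, rose from 16.2 to 24.4 CPM (0.59 ± 0.073) and from 15.4 to 24.9 CPM (0.69 ± 0.070). Il6st, encoding the shared signal chain gp130, rose by 0.28 ± 0.061 and 0.42 ± 0.047. Il1r1, the interleukin 1 receptor, fell with OA (20.8 to 16.8 CPM, -0.30 ± 0.087) and with BBR (to 14.6 CPM, -0.50 ± 0.091). The kinases Irak4 and Jak2 were lower in BBR+OA than in BBR (-0.21 and -0.29, the former lost in DESeq2 at an adjusted p of 0.118 and in the fit of all 12 libraries at 0.0665), and Irak4 was lower with OA alone (-0.35). In BBR against control 2 receptors or transducers were higher, Lifr (0.26) and Traf6 (0.25), and 3 lower, Tnfrsf1a (-0.21) among them, and in BBR+OA against OA only Il6st was called (0.24 ± 0.059).

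Transcription factors and feedback inhibitors, 20 genes, were called higher in 12 and lower in 2 cases with OA, and higher in 10 and lower in 1 in BBR+OA against BBR. Of all genes, 21.3% and 20.1% were called higher in these comparisons and 21.5% and 18.8% lower. Tnfaip3, an inhibitor of NF-kappaB signaling, rose from 26.4 to 60.1 CPM (1.19 ± 0.091) and under BBR from 20.4 to 56.9 CPM (1.46 ± 0.094). Nfkbia, encoding the NF-kappaB inhibitor I-kappa-B alpha, rose from 53.4 to 74.4 CPM (0.49 ± 0.052) and from 49.8 to 84.9 CPM (0.76 ± 0.061). Cebpd, a C/EBP factor at 7.06 CPM in control, rose with OA (0.64 ± 0.10) and from 5.44 to 8.82 CPM under BBR (0.69 ± 0.12). Stat3 was not called in any of the 4 comparisons (log2 differences of -0.12 to -0.077), nor was Cebpb (0.096 to 0.16). Stat3 was called lower with OA under upper quartile scaling (-0.16, adjusted p = 0.0162) and in 1 edgeR fit of all 12 libraries (-0.12, adjusted p = 0.0399). Its BBR+OA level was called lower than that in BBR under upper quartile scaling (-0.16, adjusted p = 0.0107) and without BBR replicate 1 (-0.15, adjusted p = 0.0268), and the replicate block called it lower in both comparisons (-0.12 in each, adjusted p = 0.00442 and 0.0304). Socs3, a feedback inhibitor of STAT3 signaling, was higher with OA (0.39 ± 0.12) and was lower in BBR+OA than in OA (-0.46 ± 0.12, adjusted p = 0.0399), the latter lost in DESeq2 (adjusted p = 0.0782). Nfkbiz was called only with OA (0.17 ± 0.062), a call lost in DESeq2 (adjusted p = 0.0786), under upper quartile scaling (adjusted p = 0.119) and in the fit of all 12 libraries (adjusted p = 0.0889). Nr3c1, the glucocorticoid receptor, fell with OA (-0.21 ± 0.050, and -0.30 ± 0.049 under BBR).

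With BBR alone, 1 of these 20 regulators was higher (Chuk, 0.17 ± 0.050) and 6 were lower, beside 27.7% of all genes called. Cebpa fell from 83.4 CPM with BBR (-0.50 ± 0.063) and with OA (-0.44 ± 0.061). Cebpd was lower with BBR by 0.36 (adjusted p = 0.0474), which DESeq2 did not call (adjusted p = 0.120). In the interaction test 4 of the 20 were called, all higher, among them Cebpa (0.41), Nfkbia (0.29, a call lost without any 1 of 7 libraries) and Hnf4a (0.24, lost without any 1 of 8).

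**Figure D5:**
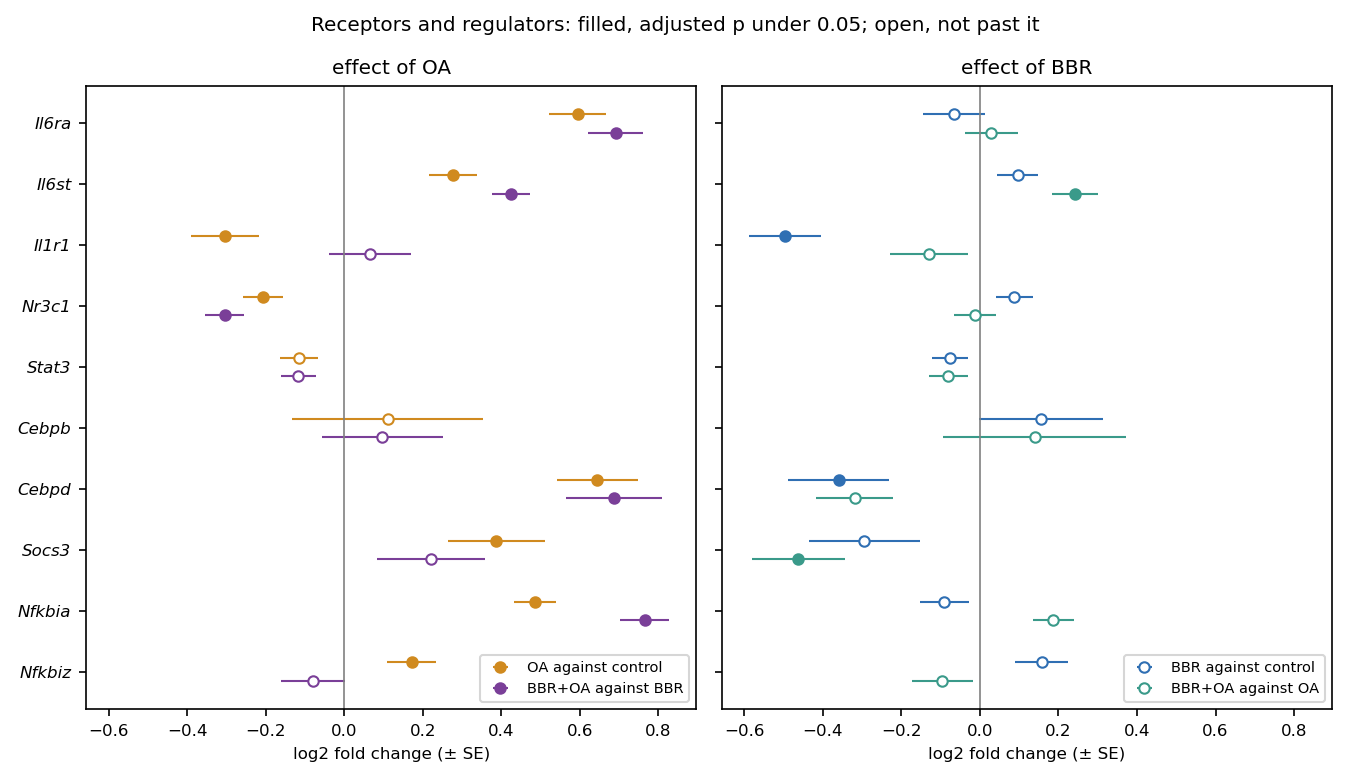
Log2 fold changes with SE of 10 receptors and regulators of acute-phase genes for OA (left) and BBR (right), filled where the adjusted p was under 0.05 in edgeR's quasi-likelihood test. Il6ra, Il6st, Cebpd and Nfkbia lie to the right of 0 for OA in cells without and with BBR, and Stat3 and Cebpb have open points throughout.

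Among 21 other positive acute-phase genes, 6 were higher and 8 lower with OA, and 11 were higher and 4 lower in BBR+OA against BBR. Of all genes, 42.8% and 38.9% were called in these comparisons. Serpina3m, a protease inhibitor, rose from 42.6 to 265 CPM (2.65 ± 0.054) and under BBR from 38.4 to 239.5 CPM (2.65 ± 0.073), more than any member. The metallothionein gene Mt2 rose with OA from 146 to 569.6 CPM (1.97 ± 0.073), and Lbp, whose product binds bacterial lipopolysaccharide, rose in BBR+OA against BBR from 16.9 to 49.4 CPM (1.54 ± 0.076). Saa4, the neighbour of Saa1 to Saa3 that is counted in this list although constitutive, fell with OA from 20.3 to 13.0 CPM (-0.63 ± 0.084). Steap4, a metal reductase, fell from 102 to 69.1 CPM (-0.55 ± 0.085). Cd14, a co-receptor for lipopolysaccharide, was lower in BBR+OA than in BBR (-0.41 ± 0.052), as was Il1rn, the interleukin 1 receptor antagonist (-0.45 ± 0.15).

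With BBR alone 3 of these 21 were higher and 12 lower, beside 27.7% of all genes called. Fgb, a fibrinogen chain, fell from 2148 to 1216 CPM (-0.81 ± 0.063), a size close to that of Hp (-0.82). Steap4 fell to 59.3 CPM (-0.76 ± 0.11), while Mt1 rose from 229.5 to 404 CPM (0.82 ± 0.079) and Mt2 from 146 to 235 CPM (0.69 ± 0.07). In BBR+OA against OA, 1 was higher and 5 lower. Hamp, the iron hormone hepcidin, rose from 142 to 294 CPM (1.05 ± 0.076), and Serpina3n (-0.35 ± 0.054) and Lrg1 (-0.32 ± 0.077) were the lower ones with the largest differences among those named by the rule. The interaction was called higher for 9 and lower for 3 of the 21. The 9 were Hamp (1.42), Steap4 (0.72), Saa4 (0.60), the fibrinogen genes Fga (0.58), Fgb (0.60) and Fgg (0.50), Cp (0.43), C3 (0.41) and Lbp (0.47), and the 3 were Mt1 (-0.88), Mt2 (-0.86) and Cd14 (-0.25, lost without control replicate 3 or BBR replicate 2).

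Negative acute-phase genes, whose plasma proteins fall in the classical response, did not move one way either. Of 12, 5 were higher and 3 lower with OA, beside 42.8% of all genes called. Apoa1, the main protein of high-density lipoprotein, rose from 1025 to 1887 CPM (0.89 ± 0.049) and Ahsg, fetuin A, from 1478 to 2244 CPM (0.61 ± 0.050), whereas Serpina7, the thyroxine carrier, fell from 199.9 to 37.0 CPM (-2.42 ± 0.10) and Trf, transferrin, from 9039.6 to 7617 CPM (-0.24 ± 0.058). In BBR+OA against BBR, 4 were higher and 2 lower, with Ahsg at 0.90, Apoa1 at 0.80, Serpina7 at -1.44 and Igf1 at -0.50. BBR alone raised 3 (Igf1 0.50 and Rbp4 0.16 among them) and lowered 3 (Serpina7 -1.28 and Trf -0.19 among them), and none was called in BBR+OA against OA by edgeR or by DESeq2, with an unadjusted p under 0.05 for 2 of them. In the interaction Serpina7 (0.99), Ahsg (0.30) and Trf (0.25, lost without any 1 of 7 libraries) were called higher and Igf1 lower (-0.51).

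Of 10 genes known to respond to glucocorticoids, 9 were higher and 0 lower with OA, and again 9 and 0 in BBR+OA against BBR. The shares of all genes called higher were 21.3% and 20.1%. DESeq2 gave the same counts for the 10 genes in both comparisons, with 0 lower at an unadjusted p under 0.05. Sgk1 rose from 14.2 to 37.2 CPM (1.40 ± 0.090) and from 14.9 to 45.3 CPM (1.60 ± 0.092), Per1 with OA by 1.15 ± 0.084 and Tat under BBR by 1.52 ± 0.15. With BBR alone 2 of them were higher, Per1 (0.61) and Dusp1 (0.19), and 5 lower, including Zbtb16 (-0.54) and Tat (-0.44), the latter lost in DESeq2 (adjusted p = 0.0588). In BBR+OA against OA 2 were higher, Klf15 (0.65) and Per1 (0.28), of which DESeq2 kept Klf15 only (Per1 adjusted p = 0.0502). The interaction was called higher for Zbtb16 (0.64) and Errfi1 (0.50).

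Of 10 genes listed as receptors and clearance partners, 6 were tested. Hmox1, which breaks down the heme that Hpx carries to cells, rose with BBR alone from 208 to 408 CPM (0.98 ± 0.091) and was lower in BBR+OA than in BBR (254 CPM, -0.68 ± 0.090). Lrp1, the receptor for heme-hemopexin, fell with OA from 421 to 245 CPM (-0.77 ± 0.080). Mertk rose with BBR from 2.75 to 5.96 CPM (1.14 ± 0.20) and was lower in BBR+OA than in BBR (-0.97 ± 0.18). Asgr1, a chain of the receptor that clears plasma glycoproteins, was lower with BBR in cells without OA (-0.15 ± 0.053) and with OA (-0.27 ± 0.067). The former call was lost in DESeq2 (adjusted p = 0.0909) and in the fit of all 12 libraries (adjusted p = 0.0719). Scarb1, a lipoprotein receptor, was lower with BBR alone (-0.14 ± 0.046), which was lost in DESeq2 (adjusted p = 0.0955) and without the filter on low counts (adjusted p = 0.0553), so that DESeq2 called 1 of the 6 lower where edgeR called 3. In the interaction Hmox1 (-1.15) and Mertk (-1.14) were called lower.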

How the data were processed

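The members and all gene lists were chosen with earlier results of these data known. Per the labels, poly(A) RNA was fragmented, reverse transcribed and read on an Illumina sequencer, and the submitters' processing notes name the mm10 build. The aligner, the counting program and whether strand was used are not given in the sources used here. For each library the authors deposited estimated counts and FPKM per gene. The estimated counts were rounded. The deposited FPKM values, which the authors had scaled for transcript length and depth, served only to rank genes by level.

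Each comparison was fitted on its 6 libraries in edgeR 4.0.16 (R 4.3.3), after filterByExpr (minimum count 10) and TMM scaling, by the quasi-likelihood F test (two-sided, Benjamini-Hochberg adjusted over all genes tested), and the interaction on 12 libraries. SE and 95% intervals of log2 fold changes came from the same test. Libraries of a group differed beyond sampling noise (chi-square per degree of freedom 2.69 to 7.26). The test was checked on simulated counts with the same spread for every gene and no effect of replicate number. That check does not cover spreads as wide as those of Saa3 and Orm2 in BBR+OA. Alternatives were RLE and upper quartile scaling, no filter, DESeq2 1.42.0, 1 fit of all libraries, a replicate block, and leaving out each library, and summing near-identical genes was added after seeing the data. Besides the members and 10 regulators (Stat3, Socs3, Cebpb, Cebpd, Nfkbia, Nfkbiz, Il6ra, Il6st, Il1r1 and Nr3c1), the text names, per pathway list and comparison, the 2 largest called rises and falls among genes whose groups did not overlap and whose higher group averaged 5 CPM or more, and the 2 features most like each member. Of the marker genes over 5 CPM some examples are named. Pathway genes called in the interaction were named after their values had been seen, and 1 of the genes chosen is not reported here. Upstream sequences are from RefSeq (GRCm38.p6) and gene positions from GENCODE M21.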

Additional observations from a re-analysis of the deposited data

Results flagged for a closer look

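The BBR effect differed with and without OA, by the interaction term of the edgeR fit on 12 libraries, for 3 of the members and always-named regulators. Hp gave 0.77 on the log2 scale (SE 0.09, adjusted p = 3.32e-05), with every BBR library below every control library and BBR+OA libraries overlapping those of OA. Crp gave 0.48 (SE 0.12, adjusted p = 0.0162), and Nfkbia gave 0.29 (SE 0.08, adjusted p = 0.0283). The Crp value missed the threshold in 4 of the 12 fits that left out 1 library (control 2, OA 2, BBR 2 or BBR+OA 3, at 0.36 to 0.45). The Nfkbia value missed it without control 1 or 2, OA 1, BBR 2 or 3, or BBR+OA 2 or 3, at 0.24 to 0.29.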

How the results depend on the processing

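Of the members' log2 fold changes, 270 of 290 kept their direction and their side of the threshold in alternatives that used all libraries of a comparison, and 302 of 360 did so when 1 library was left out. The OA calls of Lcn2, Apcs and Crp and the BBR calls of Hp and Crp held throughout. Members called moved from 5 to 3 in OA against control with 1 fit of all 12 libraries (Saa3 and Orm1 lost), and with no filter from 1 to 2 in BBR+OA against OA (Lcn2 added) and from 2 to 3 in BBR against control (Orm2 added). In the interaction 1 to 3 were called when 1 library was left out, beside 2. The counts of all genes stayed within 1.5 times except in BBR+OA against OA (563), which gave 216 to 632 when 1 library was left out, and in the interaction (1551), which gave 1027 to 1679.

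The main fits did not pair libraries by replicate number. Same-numbered libraries correlated over 0.1 in some pairs only. In deviations from the group means, same-numbered libraries correlated at 0.0105 to 0.183 over 18 pairs. Libraries with different numbers correlated at -0.149 to 0.0684 over 36 pairs. Within the 4 comparisons the lowest same-number value was 0.0535, and each library correlated best with its own number (6 of 6 in each). For 5 of 10 members, replicate 1 was lowest in every group. What same-numbered libraries share therefore stayed in the spread that the main tests used. With the replicate block, 7 members were called in OA against control (Orm2 and Hp added), 3 in the interaction (Lcn2 added), 4 in BBR against control (2 higher, Orm1 and Orm2), 3 in BBR+OA against OA (Lcn2 and Crp added), and 1333 genes in the latter.

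Signs turned for these values. Under upper quartile scaling they were Saa1 with OA (-0.021), and Saa2 (-0.029) and Orm1 (-0.034) in BBR+OA against BBR. With the block they were Orm1 in the last comparison (-0.00025), Orm2 in BBR+OA against OA (-0.038) and Cebpb in the interaction (0.026). In the interaction Hpx turned under RLE scaling (-0.0015) and DESeq2 (-0.0015), and Stat3 under RLE (-0.0089), upper quartile scaling (-0.0019) and DESeq2 (-0.0087). Leaving out 1 library gave these ranges. In BBR against control they were -0.082 to 0.11 (Lcn2), -0.21 to 0.037 (Saa3), -0.16 to 0.016 (Hpx) and -0.067 to 0.42 (Cebpb). In BBR+OA against OA they were -0.35 to 0.25 (Orm2), -0.17 to 0.042 (Orm1), -0.00042 to 0.091 (Saa2), -0.30 to 0.52 (Saa3), -0.16 to 0.050 (Hpx), -0.12 to 0.48 (Cebpb), -0.043 to 0.024 (Nr3c1) and -0.0024 to 0.057 (Il6ra). In OA against control they were -0.030 to 0.14 (Hpx), -0.035 to 0.094 (Saa1) and -0.22 to 0.37 (Cebpb). In BBR+OA against BBR they were -0.11 to 0.10 (Orm1), -0.035 to 0.19 (Hpx), -0.072 to 0.058 (Saa1), -0.44 to 0.16 (Orm2), -0.058 to 0.064 (Saa2), -0.040 to 0.14 (Il1r1), -0.091 to 0.32 (Cebpb) and -0.17 to 0.0042 (Nfkbiz). In the interaction they were -0.11 to 0.038 (Saa1), -0.12 to 0.0036 (Saa2), -0.25 to 0.57 (Saa3), -0.56 to 0.043 (Orm2), -0.080 to 0.12 (Hpx), -0.27 to 0.33 (Cebpb), -0.0033 to 0.15 (Cebpd) and -0.031 to 0.045 (Stat3). The cause was not tested. Saa3 had the lowest counts of the 10 members, with 106, 270 and 112 in the BBR+OA libraries. Whether depth had a part in its ranges was not tested.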
